A study of Mus musculus with 6 samples.

Results

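The tubulin gene family was examined through 10 of the 23725 genes in the count table, taken as a family by their symbols. They comprise the alpha-tubulin genes Tuba1a, Tuba1b, Tuba1c and Tuba4a and the beta-tubulin genes Tubb2a, Tubb2b, Tubb3, Tubb4b, Tubb5 and Tubb6, of which Tubb6 is the one the study lists. The RNA came from the mouse embryonic fibroblast line 3T3-L1, collected 24 h after treatment. In the EV group, 3 plates (libraries 1, 2 and 4) received extracellular vesicles (EVs) that MLP29 cells, a clonal mouse liver progenitor line, had released. In the control group, 3 plates (libraries 1, 2 and 3) received the matching preparation from medium in which no cells had grown. Every plate had its own preparation, all plates were kept in medium depleted of serum vesicles, and EVs were isolated by centrifugation, which can carry other material along.

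Microtubules are hollow polymers of a dimer made of 1 alpha- and 1 beta-tubulin, and they give the cell its transport tracks, its mitotic spindle and part of its shape. Each subunit is encoded by several genes, the isotypes, whose proteins are very alike and which tissues use in different proportions. Tuba1a, Tuba1b, Tuba1c, Tubb4b, Tubb5 and Tubb6 are used by many dividing cells, whereas Tubb3 is best known from neurons. Cells also adjust tubulin mRNA to the pool of free dimers, through a factor that recognises tubulin as it is being made.

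The alpha-tubulin genes Tuba1a, Tuba1b and Tuba1c are close copies, which bears on what a count means. Over their coding sequences, Tuba1a and Tuba1b were 98.3% identical, Tuba1b and Tuba1c 98.0%, and Tuba1a and Tuba1c 97.2%, against 84.9% to 85.4% between any of them and Tuba4a. All 3 lie on chromosome 15 (mm10), Tuba1a at 98949847 to 98953501 and Tuba1b at 98931429 to 98934390 on the minus strand, and Tuba1c at 99029891 to 99038105 on the plus strand. Their coding sequences shared 8 identical runs of 50 bases or more, which covered 78.7% of the first 1350 coding bases, and the longest ran for 239 bases. The next lines show, from the GENCODE vM21 gene models, the 60 coding bases (640 to 699, in exon 4, with the end of the coding sequence left out) in which the 3 genes differed most, with the 10 differing positions in capitals, because such stretches are where a read could tell the genes apart. They lie at chr15:98950691-98950750 (minus strand), chr15:98932239-98932298 (minus strand) and chr15:99037299-99037358 (plus strand).
Tuba1a: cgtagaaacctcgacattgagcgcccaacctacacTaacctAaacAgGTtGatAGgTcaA
Tuba1b: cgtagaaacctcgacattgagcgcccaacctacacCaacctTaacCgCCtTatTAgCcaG
Tuba1c: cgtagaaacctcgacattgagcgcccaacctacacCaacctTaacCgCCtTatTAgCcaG
In these 60 bases Tuba1a differed from the others, while Tuba1b and Tuba1c carried the same letters.

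Beta-tubulin genes were less alike. Tubb2a and Tubb2b were 96.5% identical over their coding sequences, whereas Tubb5 was 82.3% identical to Tubb4b and 80.6% to Tubb6. To see which counts could be shared, the 50-base windows of each gene's transcripts were compared with the transcripts of every other gene in the same direction. For Tuba1a 72.9% of the windows were found in at least 1 other gene or pseudogene, for Tuba1b 66.7% and for Tuba1c 52.7%. The corresponding values were 49.6% for Tubb2a, 36.9% for Tubb2b and 37.8% for Tubb4b, whose windows recurred in the pseudogenes Tubb4b-ps1 and Tubb4b-ps2. Tubb5 shared 0.0892% of its windows, Tuba4a 0.807%, and Tubb3 and Tubb6 shared none. How the counting treated reads with several matches is not given in the sources used here, so the counts under Tuba1a, Tuba1b, Tuba1c, Tubb2a, Tubb2b and Tubb4b are uncertain as to their gene.

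**Figure D1:**
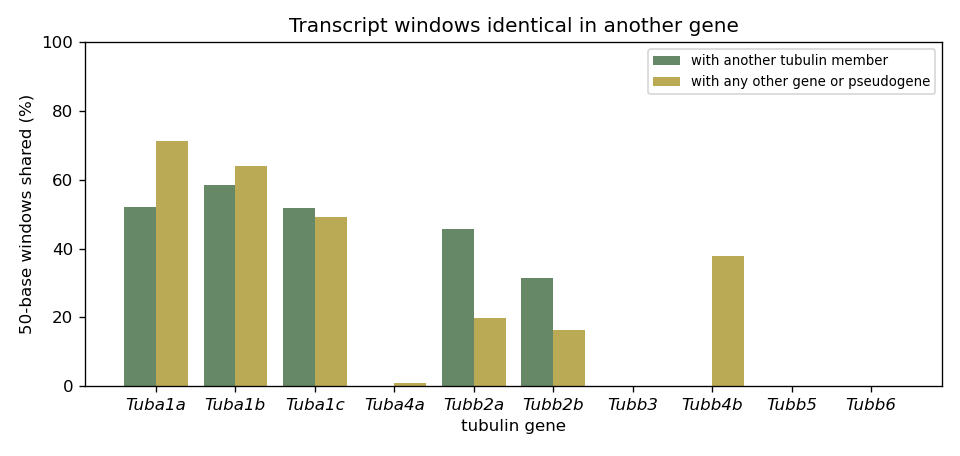
Share of the 50-base transcript windows of each tubulin gene (percent, vertical axis) that was found without mismatch in another tubulin gene of the family (green bars) or in any other gene or pseudogene (yellow bars). Tuba1a, Tuba1b and Tuba1c exceed 49% in both bars, while Tubb3 and Tubb6 are at 0.

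The libraries held 508599 to 665465 counts each, and edgeR's filter on low counts kept 5066 genes for testing. These totals are a small part of the read number that the paper states for its sequencing, and the reason was not tested. The library kit keeps the strand, but the strand setting of the counting is not given in the sources used here. Of 83 of the 100 most counted genes that could be matched to the annotation, 66 shared exon sequence with a neighbour transcribed from the other strand, compared with 24.8% of all matched genes. Each value below is therefore the count listed under a gene's identifier, and whether it came from that gene's own transcript was not tested. Of the 14 fibroblast markers, 12 reached the test, among them Vim and Col1a1, while Fap and Lum were at 0 in every library. The summed normalized CPM (counts scaled to a common library size with edgeR's TMM factors) of these markers ranged over 2608 to 3036 in control and 1162 to 1483 in EV libraries. Of 12 markers of liver progenitor and epithelial cells, 8 were at 0 in every library, among them Krt8, Krt18, Epcam, Alb and Hnf4a, and the summed CPM of the list was 57.2 to 99.2 in control and 33.5 to 42.3 in EV libraries. The only marker of this list to be tested was Spp1, with 17, 45 and 39 counts in control and 7, 9 and 7 in EV libraries. Spp1 had a log2 fold change of -1.91 (adjusted p = 2.29e-05, edgeR), and Sox9 had 9 to 13 counts per library.

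Counts of 3 tubulin genes were lower after EV treatment, with the largest fold changes in the beta-tubulins Tubb5 and Tubb4b. Of the 10 members, 7 had enough counts to be tested, and 3 of them (Tubb5, Tubb4b and Tuba1b) were called lower by the quasi-likelihood test of edgeR at an adjusted p under 0.05, a call that 14.3% of all tested genes received. No member was called higher (0 of 7, also 0 at an unadjusted p under 0.05 and 0 by the Wald test of DESeq2), as 7.58% of all genes were. Tested members were too few to set a count of 0 apart from that share. The Wald test called 1 member lower, Tubb5, and gave Tubb4b no adjusted p. Neither Tubb5, Tubb4b nor Tuba1b is in the paper's list of changed transcripts, in which Tubb6 is the only tubulin. The median log2 fold change over the 7 tested members was -0.38, against 0.01 over all genes tested, and 6 of the 7 were below 0, against 48.8% of all genes. In 2 members, Tubb5 and Tubb4b, the normalized values of the groups did not overlap, as in 39.4% of all genes. In whole cultures, fewer cells that express a gene and less RNA per cell cannot be told apart. The fibroblast markers moved in the same direction, all 12 tested being below 0, with a median log2 fold change of -1.07. Of these 12 markers, 8 were called lower (14.3% of all genes), and their part in the tubulin result was not tested.

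**Figure D2:**
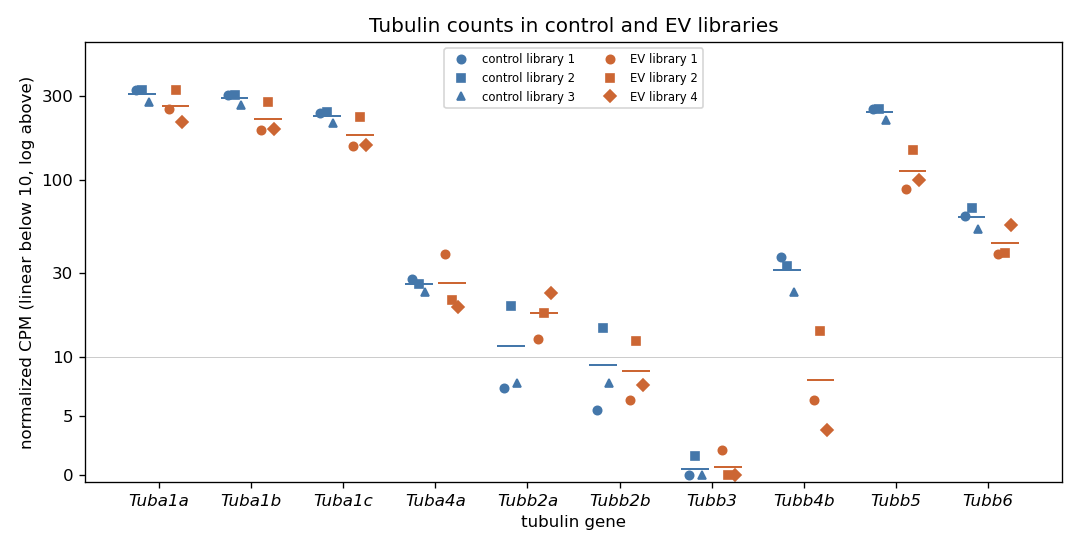
Normalized CPM (vertical axis, linear below 10 and logarithmic above) of each tubulin gene in the 3 control (blue) and 3 EV (orange) libraries, with horizontal lines for the group means. Tubb5 and Tubb4b are the members whose groups stand apart with enough counts to be tested, while the other genes overlap.

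Tubb5, the main beta-tubulin of many dividing cells, had the lowest adjusted p of the family. Its counts (Entrez identifier 22154, chromosome 17, 35833920 to 35838301, minus strand) were 137, 156 and 140 in control libraries 1, 2 and 3, against 42, 84 and 52 in EV libraries 1, 2 and 4. Every EV library lay below every control library. The mean went from 242 ± 20.0 normalized CPM (SD, n = 3) in control to 112 ± 31.5 (SD, n = 3) in EV cells, a log2 fold change of -1.09 ± 0.16 (SE, adjusted p = 1.02e-06, edgeR), so that it fell by 53.0%. The call held in 14 of 14 alternative fits, with log2 fold changes from -1.33 to -0.91.

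Tubb4b, a beta-tubulin found in most tissues and abundant in cilia, had the largest fold change but few counts. Its counts (Entrez identifier 227613, chromosome 2, 25222158 to 25224702, minus strand) were 20, 20 and 15 in control against 3, 8 and 2 in EV libraries. Again no EV library reached a control library, although 2 of the EV values were at or below the floor of 3 counts. Its mean of 31.0 ± 6.88 normalized CPM (SD, n = 3) compared with 8.09 ± 5.35 (SD, n = 3), a log2 fold change of -1.86 ± 0.42 (SE, adjusted p = 0.00105, edgeR). It passed in all 11 alternatives that could give it a value, with log2 fold changes from -2.53 without EV library 2 to -1.48 without EV library 4. Tubb4b overlaps 121 bases of Fam166a exons on the opposite strand, and Fam166a had 331 to 536 counts per library, with a log2 fold change of -0.03 (adjusted p = 0.865, edgeR).

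Promoters of the pair are shown because these genes had the largest fold changes. RefSeq promoters (GRCm38.p6) were at hand for 8 of the 10 members, and the 250 bases before the annotated start are printed, 5′ to 3′ along the gene, with matches to CCAAT and GGGCGG in capitals. Tubb5 is at chr17:35838302-35838551 and Tubb4b at chr2:25224703-25224952, both on the minus strand.
Tubb5: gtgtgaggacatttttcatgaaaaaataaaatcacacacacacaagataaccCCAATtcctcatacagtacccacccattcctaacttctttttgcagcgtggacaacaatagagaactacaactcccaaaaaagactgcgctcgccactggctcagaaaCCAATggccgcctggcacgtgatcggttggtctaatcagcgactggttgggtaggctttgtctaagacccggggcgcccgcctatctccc
Tubb4b: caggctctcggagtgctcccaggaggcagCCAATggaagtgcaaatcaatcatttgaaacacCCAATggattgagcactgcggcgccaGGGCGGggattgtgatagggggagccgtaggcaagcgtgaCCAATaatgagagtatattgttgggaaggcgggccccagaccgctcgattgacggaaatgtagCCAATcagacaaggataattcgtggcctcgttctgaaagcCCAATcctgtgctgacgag
Matches on both strands were counted, so that ATTGG counted as CCAAT and the reverse complements of GGGCGG and TATAAA likewise. Tubb4b held 5 CCAAT matches and 1 GGGCGG match, and Tubb5 held 2 CCAAT matches and 0 of GGGCGG. Among the other 6 promoters, CCAAT occurred in those of Tuba1a, Tuba1c and Tubb3 with 1 match each, and GGGCGG in all but that of Tuba1c. TATAAA was found in that of Tubb2a alone and the CArG box in none of the 8, which do not include Tubb2b and Tubb6. Of all 32851 RefSeq promoters, 33.8% held CCAAT within the same 250 bases, 32.7% GGGCGG, 12.4% TATAAA and 1.47% a CArG box.

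Tubb6, a beta-tubulin expressed in fibroblasts and many other cells, was lower on average without passing the test. The paper lists Tubb6 as lower in its own DESeq2 test, with a log2 fold change smaller in size than in any fit here. By qPCR the paper also reports a downregulation of Tubb6. The DESeq2 Wald test run here gave Tubb6 a log2 fold change of -0.47 (adjusted p = 0.357). Why this result differs from the paper's was not tested. The counts listed under Tubb6 (Entrez identifier 67951, chromosome 18, 67390731 to 67402749, plus strand) were 34, 43 and 34 in control and 18, 22 and 29 in EV libraries. After normalization these were 62.8, 69.9 and 53.1 CPM against 38.0, 38.8 and 55.6 CPM. EV libraries 1 and 2 lay below all controls, but EV library 4 lay above control library 3, so the groups overlapped. The mean was 61.9 ± 8.44 normalized CPM (SD, n = 3) in control and 44.1 ± 9.95 (SD, n = 3) in EV cells, a log2 fold change of -0.48 ± 0.24 (SE, adjusted p = 0.139, edgeR). Over the alternatives the log2 fold change stayed between -0.79 and -0.30 and the adjusted p between 0.0377 and 0.399, and 1 of 14 passed. Its windows were shared with no other gene and it had no exon overlap on the opposite strand.

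Whether Tubb6 moved apart from its relatives was asked within libraries, where scaling drops out. The log2 ratio of Tubb6 to Tubb4b counts (with 0.5 added to each) was 0.75, 1.09 and 1.15 in control and 2.40, 1.40 and 3.56 in EV libraries, so the groups did not overlap, with a difference of 1.46 (exact two-sided permutation p = 0.1, the smallest that 3 against 3 allow, and 0.6 after adjustment over the 6 pairs). The log2 ratio of Tubb6 to Tubb5 was -1.995, -1.85 and -2.03 in control and -1.20, -1.91 and -0.83 in EV libraries, a difference of 0.64 (exact p = 0.2, adjusted 0.6), and EV library 2 lay among the controls. Against the alpha-tubulins the differences were smaller and negative, between -0.46 for Tuba4a and -0.08 for Tuba1b, with an exact p of 0.5 or 0.7 and an adjusted p of 0.7. Leaving out EV library 2 turned the differences against Tuba1a, Tuba1b and Tuba1c positive (0.000285, 0.17 and 0.14), and leaving out EV library 1 moved that against Tuba4a to -0.07. No pair could pass the threshold in a design of this size.

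The genes Tuba1a, Tuba1b and Tuba1c, which supply most alpha-tubulin in dividing cells, had smaller fold changes than Tubb5. Tuba1b (Entrez identifier 22143) had 164, 187 and 169 counts in control and 91, 156 and 102 in EV libraries. EV libraries 1 and 4 were low and EV library 2 was within the controls after normalization, so the groups overlapped. The mean was 290 ± 22.8 normalized CPM (SD, n = 3) against 221 ± 46.7 (SD, n = 3), a log2 fold change of -0.38 ± 0.14 (SE, adjusted p = 0.0384, edgeR). This call held in 6 of 13 alternatives and was lost in the other 7. When control library 1 or 2 or EV library 1 or 4 was left out, the adjusted p of Tuba1b was 0.107, 0.128, 0.215 and 0.255 (edgeR), and by the DESeq2 Wald test it was 0.141. The minus-strand gene overlaps 87 bases of an exon of Gm41396, which is not analysed here.

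Tuba1a (Entrez identifier 22142) had 175, 199 and 178 counts in control and 119, 183 and 111 in EV libraries, or 308 ± 26.2 and 262 ± 55.5 normalized CPM (SD, n = 3 each), with a log2 fold change of -0.22 ± 0.13 (SE, adjusted p = 0.22, edgeR). Tuba1c (Entrez identifier 22146) had 130, 149 and 134 counts in control and 74, 129 and 82 in EV libraries, or 231 ± 18.4 and 180 ± 40.7 normalized CPM (SD, n = 3 each), with a log2 fold change of -0.34 ± 0.15 (SE, adjusted p = 0.086, edgeR). In both genes EV library 2 fell among the controls and the groups overlapped, and neither passed the test. In 3 alternatives Tuba1c passed (edgeR), without EV library 2 (log2 fold change -0.53, adjusted p = 0.0261), with total library size (adjusted p = 0.0178) and with at least 10 counts in every library (adjusted p = 0.0403), and Tuba1a passed in 1, with total library size (adjusted p = 0.0484).

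Tuba4a, the alpha-tubulin whose message does not itself encode the final tyrosine, had low counts and no call. It (Entrez identifier 22145, chromosome 1, 75214972 to 75221261) had 15, 16 and 15 counts in control and 18, 12 and 10 in EV libraries, a log2 fold change of 0.00 ± 0.33 (SE, adjusted p = 0.997, edgeR). EV library 1 lay above the controls and the other EV libraries lay below them. Its exons overlap 1379 bases of Stk16 on the opposite strand, which had 40 to 59 counts per library, with a log2 fold change of 0.32 (adjusted p = 0.218, edgeR).

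The 3 remaining members had too few counts for the filter. Tubb2a, a beta-tubulin best known from brain (chromosome 13, 34074278 to 34078008), had 4, 12 and 5 counts in control and 6, 10 and 12 in EV libraries. Tubb2b, its near copy (chromosome 13, 34127008 to 34130354), had 3, 9 and 5 counts against 3, 7 and 4. Their groups overlapped, and when no filter was applied the log2 fold change was 0.69 for Tubb2a (standard error 0.44, adjusted p = 0.415) and 0.01 for Tubb2b (standard error 0.55, adjusted p = 0.991) in edgeR's test over 15321 genes. Tubb3, the neuronal isotype (chromosome 8, 123411553 to 123422015), had 1 count in control library 2, 1 in EV library 1 and 0 in the others, below the floor of 3 counts, and no difference could be detected with so few counts.

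The make-up of the tubulin counts, by sums over the members, shifted from beta towards alpha in the EV libraries. The 10 members together held 682, 792 and 695 counts in control and 375, 611 and 404 in EV libraries, or 0.104% to 0.129% of all counts in control and 0.0708% to 0.0971% in EV libraries. The alpha members summed to 484, 551 and 496 counts against 302, 480 and 305, and the beta members to 198, 241 and 199 against 73, 131 and 99. Per alpha-tubulin count there were 0.409, 0.437 and 0.401 beta-tubulin counts in control and 0.242, 0.273 and 0.325 in EV libraries, groups that did not overlap. Tubb5 made up 20.1%, 19.7% and 20.1% of all tubulin counts in control libraries and 11.2%, 13.7% and 12.9% in EV libraries, while Tubb6 made up 4.99%, 5.43% and 4.89% against 4.8%, 3.6% and 7.18%. These sums follow from the members described above and were not tested.

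Scaled to exon length, the order of the counts listed under the isotypes was led by the same genes in both groups. Exon length was not corrected for windows shared with other genes. The places of Tuba1a, Tuba1b, Tuba1c, Tubb2a, Tubb2b and Tubb4b are therefore as uncertain as their counts. In control cells Tuba1a had 171 ± 14.5 and Tuba1b 155 ± 12.2 normalized CPM per kb of exon (SD, n = 3 each), and the ranges of these neighbours overlapped. Tuba1c followed with 101 ± 8.05 and Tubb5, the leading beta-tubulin, with 72.7 ± 6.01 CPM per kb, each apart from its neighbours. Tubb6 had 25.4 ± 3.46 and Tubb4b 14.8 ± 3.30 CPM per kb in control, apart from each other, while below them the ranges of Tubb4b, Tubb2a (7.19 ± 4.28), Tuba4a (6.95 ± 0.58) and Tubb2b (4.07 ± 2.06) overlapped from neighbour to neighbour. Tubb3 was last. In EV cells the first 5 places were the same, with Tubb5 at 33.7 ± 9.47 and Tubb6 at 18.1 ± 4.08 CPM per kb (SD, n = 3 each), groups that still did not overlap. Tubb4b went from the place after Tubb6 to 3.87 ± 2.56 CPM per kb in EV cells, below Tubb2a (11.04 ± 3.21) and Tuba4a (7.06 ± 2.80), though its range there overlapped that of Tuba4a.

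Counts of the highest members were tied to each other within libraries, in pairs chosen after their values were seen. The log2 ratio of Tuba1c to Tuba1b counts lay between -0.33 and -0.27 over all 6 libraries, a spread smaller than counting noise would give (chi-square per degree of freedom 0.0193 with 5 degrees of freedom). Tubb5 and Tuba1a had a log2 ratio of -0.35 in each of the 3 control libraries, which likewise spread less than counting noise (chi-square 0.0009 in all, with 2 degrees of freedom), and of -1.49, -1.12 and -1.09 in the EV libraries. The ratio of Tubb4b to Tubb5 was -2.75, -2.93 and -3.18 on the log2 scale in control and -3.60, -3.31 and -4.39 in EV libraries. These ratios are a description and carry no test.

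**Figure D3:**
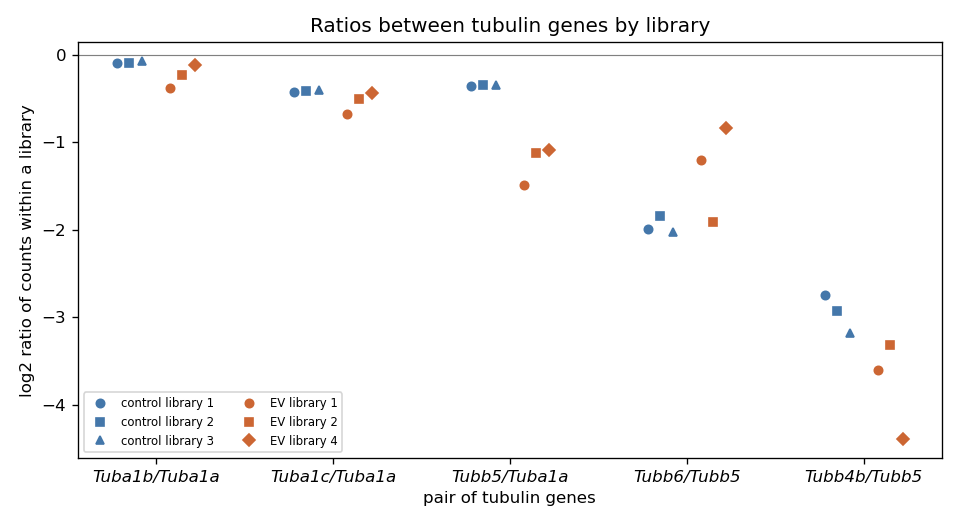
Log2 ratio of the counts of pairs of tubulin genes within each library (vertical axis), with control libraries in blue and EV libraries in orange. Tubb5 against Tuba1a is at -0.35 in the 3 control libraries and between -1.49 and -1.09 in the EV libraries, while Tubb6 against Tubb5 overlaps between the groups.

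By Pearson's r of log2 normalized CPM over the 6 libraries, the genes most like Tubb6 among 5059 others were Nckap1 (r = 0.987), AI506816 (r = 0.982) and Trim26 (r = 0.982). Of these, AI506816 had a log2 fold change of -1.45 (adjusted p = 0.00402, edgeR), Nckap1 one of -0.93 (adjusted p = 0.0222, edgeR) and Trim26 one of -0.43 (adjusted p = 0.325, edgeR). The genes most like Tuba1a, the member with the highest mean count, were Qrich1 (r = 0.984), Cul4b (r = 0.983) and Zcrb1 (r = 0.978), none of which passed the test. These r values describe the same 6 libraries, which the genes share, and were picked as the highest of many.

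Newly made tubulin reaches its fold through prefoldin, the ring-shaped chaperonin CCT and the tubulin cofactors. Of 23 genes listed, 14 were tested, 9 had a log2 fold change below 0 (48.8% of all tested genes did), 6 fell (14.3% of all genes) and 1 rose (7.58% of all genes), with a median log2 fold change of -0.63. By the DESeq2 Wald test 2 fell and 1 rose. The CCT subunit Cct5 had 33, 60 and 42 counts in control and 11, 16 and 20 in EV libraries, which did not overlap, a log2 fold change of -1.31 ± 0.26 (SE, adjusted p = 0.000204, edgeR). Tbca, the cofactor that holds free beta-tubulin, had 26, 44 and 49 counts in control and 12, 15 and 22 in EV libraries, a log2 fold change of -1.07 ± 0.26 (SE, adjusted p = 0.00273, edgeR). Both calls held in 14 of 14 alternatives. The CCT subunits Cct6a, Cct4 and Cct7 fell with log2 fold changes of -0.96, -0.85 and -0.84 (adjusted p = 0.00806, 0.0088 and 0.0125, edgeR), and the prefoldin subunit Pfdn5, the last of the 6, had a log2 fold change of -1.26 (adjusted p = 0.0179, edgeR).

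The calls of these 4 were lost in some alternatives. By the DESeq2 Wald test the adjusted p was 0.0669 for Cct4, 0.0614 for Cct6a and 0.084 for Cct7, and with no filter it was 0.052 for Pfdn5. Without EV library 1 the adjusted p was 0.0638 for Cct4, 0.0548 for Cct6a and 0.0595 for Cct7, and without control library 2 it was 0.053 for Cct6a, 0.0592 for Cct7 and 0.209 for Pfdn5 (edgeR). It was also above 0.05 for Cct7 without EV library 4 (0.0798) and for Pfdn5 without EV library 2 (0.0509) or EV library 4 (0.0884). Cct6a and Cct7 are overlapped on the opposite strand by exons of Psph and Pradc1, in this order. Tcp1, a further CCT subunit, was the gene that rose, with 583, 625 and 768 counts in control and 576, 793 and 718 in EV libraries and a log2 fold change of 0.28 ± 0.09 (SE, adjusted p = 0.0243, edgeR). It is overlapped on the opposite strand by exons of Acat3 and Mrpl18, and its call was lost in 6 of 13 alternatives, with an adjusted p of 0.211 with total library size, 0.115 with at least 10 counts in every library, and 0.105, 0.208, 0.0893 and 0.0707 without control library 1 or 2 or EV library 2 or 4, in this order.

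Proteins that bind microtubules or move along them organise the network and carry cargo on it. Of 56 genes listed, 31 were tested, 8 fell (14.3% of all tested genes did) and 0 rose (7.58% of all genes, and 0 also at an unadjusted p under 0.05), with a median log2 fold change of -0.46. By the DESeq2 Wald test 1 fell and 0 rose. Dync1h1, the heavy chain of the dynein motor, had 97, 98 and 91 counts in control and 39, 50 and 45 in EV libraries, a log2 fold change of -0.89 ± 0.17 (SE, adjusted p = 0.000117, edgeR), held in 13 of 13 alternatives. Dync1h1 is overlapped on the opposite strand by exons of Gm35558 and Gm17111, so it did not enter the fit over genes without such overlap. Macf1, which links microtubules to actin, had 32, 40 and 26 counts in control and 11, 14 and 17 in EV libraries, a log2 fold change of -1.02 ± 0.28 (SE, adjusted p = 0.00696, edgeR), and its adjusted p was 0.062 without control library 2 and 0.0586 by the DESeq2 Wald test. The dynein light intermediate chain Dync1li1, the tubulin-sequestering protein Stmn1 and the plus-end protein Clip1 had log2 fold changes of -1.23, -0.997 and -0.98 (adjusted p = 0.0214, 0.0218 and 0.0352, edgeR). Each of these 3 calls was lost without control library 1 (adjusted p = 0.0622, 0.0531 and 0.0743), without control library 2 (0.149, 0.0562 and 0.36) and without EV library 2 (0.139, 0.121 and 0.0782), and some were lost without EV library 1 (0.0823 for Stmn1 and 0.102 for Clip1) or EV library 4 (0.1 for Dync1li1 and 0.0671 for Clip1). By the Wald test the adjusted p was 0.136 for Stmn1 and 0.171 for Clip1, and without the filter it was above 0.05 for all 3 (0.0612, 0.0759 and 0.0879), as it was for Stmn1 and Clip1 among genes without an opposite-strand overlap (0.06 and 0.0759).

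Genes of microtubule nucleation and of tubulin modification gave few tested genes, too few to set a count of 0 apart from the share over all genes. Of 18 other tubulins and gamma-tubulin ring genes, 4 were tested, 0 fell (14.3% of all tested genes did, and 0 also fell at an unadjusted p under 0.05 and by the DESeq2 Wald test) and 2 rose (7.58% of all genes, and 2 also by the Wald test), with a median log2 fold change of 0.42. Tubgcp4, a subunit of the ring from which microtubules grow, had 229, 247 and 295 counts in control and 295, 309 and 285 in EV libraries, a log2 fold change of 0.41 ± 0.11 (SE, adjusted p = 0.00475, edgeR), and its adjusted p was 0.077 without control library 2. Tubgcp6, another ring subunit, had a log2 fold change of 0.27 ± 0.09 (SE, adjusted p = 0.0282, edgeR), and its call was lost when only total library size was used (0.246), with at least 10 counts in every library (0.126) and without control library 1 or 2 or EV library 2 (0.16, 0.145 and 0.0515). Exons of Trp53bp1 and Zscan29 overlap Tubgcp4 on the opposite strand, and exons of Selenoo overlap Tubgcp6. Of 30 enzymes that modify or sever tubulin, 8 were tested and 0 passed (1 was higher at an unadjusted p under 0.05, and 0 passed by the DESeq2 Wald test), with a median log2 fold change of 0.14. The lineage-restricted tubulins Tuba3a, Tubb1 and Tubb4a were at 0 in every library. Tubal3, an alpha-tubulin-like gene singled out after its values were seen, had 0, 2 and 2 counts in control and 8, 5 and 7 in EV libraries, which did not overlap, but the filter kept it from the test.

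**Figure D4:**
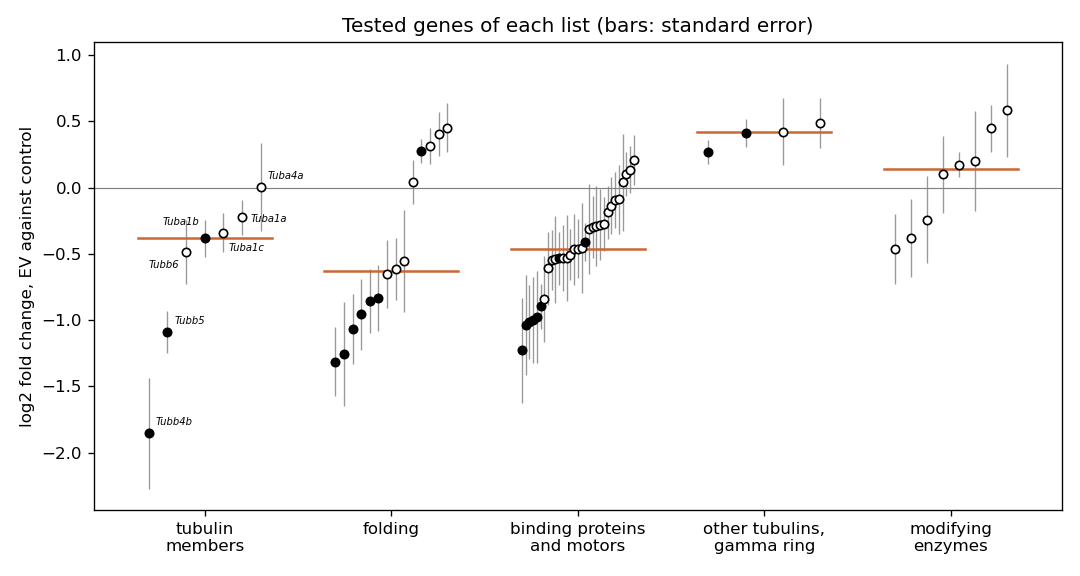
Log2 fold change of EV against control (vertical axis) for each tested gene of the tubulin family and of 4 microtubule gene lists, with bars for the standard error, filled points for an adjusted p under 0.05 and orange lines for list medians. The medians are -0.38 for the tubulins, -0.63 for folding, -0.46 for binding proteins and motors, 0.42 for other tubulins and the gamma ring and 0.14 for modifying enzymes.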

How the data were processed

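RNA-seq libraries of 6 plates were analysed, grouped by their titles. The authors ran FastQC, mapped reads on mm10 (STAR), assigned them to genes (Rsubread) and deposited raw whole-number counts per gene, without normalization. Tool versions, strand setting and treatment of reads with several matches are not given in the sources used here. Of the Entrez identifiers, 99.8% had a RefSeq symbol and 88.7% matched GENCODE vM21 (mm10), which gave exons, coding sequences and transcript windows.

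Counts were filtered (filterByExpr), scaled (TMM) and tested without covariates by the quasi-likelihood test of edgeR 4.0.16 in R 4.3.3, tested on simulated data, with Benjamini-Hochberg adjustment over the 5066 genes tested and a threshold of 0.05. The biological coefficient of variation was 0.0779. Standard errors are the log2 fold change over the square root of F. P-values measure the spread between plates. Replicates differed by more than sampling noise (chi-square per degree of freedom 1.20 to 1.94). Floors cover counting error only.

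All members were named. Of each list, the genes past the threshold were named, at most 5 per direction, by adjusted p, and Pfdn5 and genes at 0 were added after their values were seen. Members and lists were chosen with earlier results of these data known. Alternatives were DESeq2 1.42.0 (size factors, Wald test), total library size, other filters, a robust fit, genes without opposite-strand overlap, a block for the replicate number and leaving out each library. Coding sequences were aligned with Biopython 1.88.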

Additional observations from a re-analysis of the deposited data

How the results depend on the processing

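The paper's own DESeq2 test called far fewer transcripts than any fit here, and most of them were lower. Tubb6 is the only tubulin in its list, and why the calls differ was not tested. Across all genes, 723 were called lower and 384 higher in the main fit here. The counts were 294 and 245 with the DESeq2 Wald test, 473 and 142 with at least 10 counts in every library, 312 and 223 over genes without opposite-strand overlap (fewer genes tested), and 390 to 795 and 65 to 420 with 1 library left out (390 and 65 without control library 2, 127 higher without control library 1). With total library size 962 were lower and 89 higher, as the median log2 fold change of all genes moved from 0.01 to -0.12. Of the tubulins, 5 were lower with total library size, 1 with the Wald test, which gave Tubb4b no adjusted p, and 1 among genes without overlap, where Tuba1b and Tubb4b do not enter, and 2 to 4 with 1 library left out (4 without EV library 2). The 14 lower genes of the microtubule lists became 3 (Wald test), 8 (no filter), 6 (genes without overlap) and 5 to 13 (1 library left out: 8 without control library 1, 5 without control library 2, 7 without EV library 1 and 8 without EV library 2), and the 3 higher became 1 with total library size, 1 with at least 10 counts and 0 to 5 with 1 library left out. Tuba4a changed sign, to -0.13 with total library size, -0.082 with at least 10 counts and between -0.30 and 0.22 with 1 library left out. Without EV library 2 the difference in the log2 ratio of Tubb6 turned positive against Tuba1a (range -0.55 to 0.000285), Tuba1b (-0.33 to 0.17) and Tuba1c (-0.38 to 0.14). The cause was not tested.

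Libraries that share the number 1 or 2 deviated from their group means with little correlation (r = 0.0714 and 0.0634). Libraries with different numbers were not compared in this way, so these values do not settle whether the numbers mark a pairing. With the replicate number as a block, 701 genes were lower and 414 higher, 3 tubulins were lower and 0 higher, and 19 list genes were lower and 4 higher. Tubb6 passed with the block (log2 fold change -0.79, adjusted p = 0.0377, edgeR), and Tuba1b did not (-0.38, adjusted p = 0.0733). Control library 3 and EV library 4 share no number with another library, so the block takes both out of this contrast, and EV library 4 is the one in which Tubb6 overlapped the controls. Genes at 3 counts or fewer could not be compared at this depth.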
